A study of Mus musculus with 6 samples.

Results

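The 9 genes described here encode transcription factors of microglia and macrophages: Spi1, Irf8, Irf5, Runx1, Ikzf1, Maf, Sall1, Cebpa and Cebpb. They were chosen by name, as every non-control array probe whose gene name in the deposited files is one of these symbols, which gave 18 probes. Of the 9 genes, 8 could be tested, among 24932 tested genes in all; Spi1 was too dim to test. Each sample was total RNA of a brainstem and cerebellum dissection, measured on its own Cy3 array, with 3 samples of wild-type mice and 3 of mice labelled MSA transgenic. All 6 samples carried the mixed strain background given as C57BL/6, 129 and C3H, and the age was 16 weeks in both genotypes. The transgene, its promoter, the cells that express it, the number of founder lines and the sex of the mice are not given in the sources used here, and MSA is not spelled out in them. Whether the samples of a genotype came from separate mice is not stated, so the p-values below reflect only how these 3 samples scattered, which may be technical in part.

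These factors act in layers. PU.1, the ETS family protein encoded by Spi1, is needed to make myeloid cells and binds the enhancers of most microglial genes, often beside IRF8, which binds DNA poorly without a partner. RUNX1 and Ikaros (Ikzf1) act in blood cell development and stay on in microglia, SALL1 and MAF hold the identity of microglia and of resting tissue macrophages, and IRF5, C/EBP alpha (Cebpa) and C/EBP beta (Cebpb) drive macrophage differentiation and inflammatory gene programmes. Several are also made outside the myeloid lineage, among them Maf, Cebpb and Sall1.

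An array reads each gene through 60-base probes, so the sequence of a probe decides which transcript its signal stands for. The probes below are shown because the results turn on them: those that carry the values of Irf8, Irf5, Runx1 and Sall1, the second probes of Irf8 and Irf5, and the exon-spanning probes of Spi1 and Ikzf1. The first 30 bases are given for 6 probes and all 60 for the exon-spanning pair, as the deposited files write them, on the strand of the transcript.
Irf8, transcript NM_008320, first 30 bases: aacagacagggtcgacagagtgtgtgatac
Irf8, transcript ENSMUST00000162775, first 30 bases: ctggcctttgcttaaagcacaagctttgga
Irf5, transcript NM_012057, first 30 bases: cagagtcggggtaacaagaacatagaagag
Irf5, transcript AK171356, first 30 bases: agaggtttctgattgtgggacacagtctgg
Runx1, transcript NM_001111023, first 30 bases: tccctctttcagccaggtcggtatagccaa
Sall1, transcript NM_021390, first 30 bases: cctcttgatcaagagcaggtatagtgttgg
Spi1, transcript NM_011355, all 60 bases: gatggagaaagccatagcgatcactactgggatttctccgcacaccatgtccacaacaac
Ikzf1, transcript NM_001025597, all 60 bases: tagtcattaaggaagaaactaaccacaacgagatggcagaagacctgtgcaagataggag

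In build mm9, the coordinates of the files, the first Irf8 probe lies at chr8:123280324-123280383 and the second at chr8:123267009-123267068. The Irf5 probes lie at chr6:29486901-29486960 and chr6:29491799-29491858, the Runx1 probe at chr16:92602576-92602635 and the Sall1 probe at chr8:91551278-91551337. The Spi1 probe is placed at chr2:90939665-90953452, a span of 13788 bases for 60 bases of sequence, and this Ikzf1 probe at chr11:11658319-11661278, a span of 2960 bases, so both cross at least 1 intron. Each of the other 16 probes lies in 1 unbroken stretch of 60 bases. Whether a stretch is coding or untranslated was not determined, as no annotation of mm9 was used here.

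Wild-type replicate 1 stood apart from the other arrays in slide, signal and correlation. It was hybridised alone on slide 1, away from the 5 arrays of slide 2. Its 75th percentile of signal was 405.7 intensity units against 535.0 to 609.2 on the others, and 64.8% of its probes were well above background against 68.6% to 71.7%. Across genes it correlated with the other arrays at 0.974 to 0.978, and those of slide 2 with one another at 0.991 to 0.996. Levels are given below as log2 of the processed signal minus log2 of the array's 75th percentile, so 0 is the 75th percentile and negative values are dimmer. Levels of different probes are not comparable as amounts of RNA. Replicate numbers only name the samples, and values are listed in the order of replicates 1, 2 and 3.

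None of the 8 tested factors passed the test between the genotypes. Irf8, Irf5, Runx1 and Ikzf1 had signals 1.44 to 1.64 times the wild-type mean in the transgenic samples, with all 3 transgenic samples above all 3 wild-type samples. Maf, Sall1, Cebpa and Cebpb were at 0.978, 0.831, 1.15 and 1.04 times, with overlapping groups. In limma with Benjamini-Hochberg adjustment over all genes, 0 of the 8 factors had an adjusted p under 0.05, against 11 of 24932 genes (0.0441%), and 4 of the 8 had an unadjusted p under 0.05, against 1462 genes (5.86%). Probe by probe, 0 of 13 tested probes of the factors passed, against 11 of 38463 probes (0.0286%). The groups did not overlap, with the transgenic samples higher, for 4 of the 8 factors and for 7.4% of all genes (6.68% of all probes). They did not overlap with the transgenic samples lower for 0 of the 8, against 7.5% of all genes. These counts of separate groups were added after the values had been seen. The median log2 difference was -0.00 over all genes, and 49.9% of them had a difference above 0. In RNA of whole tissue, a change in the number of cells of a type and a change in RNA per cell cannot be told apart.

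**Figure D1:**
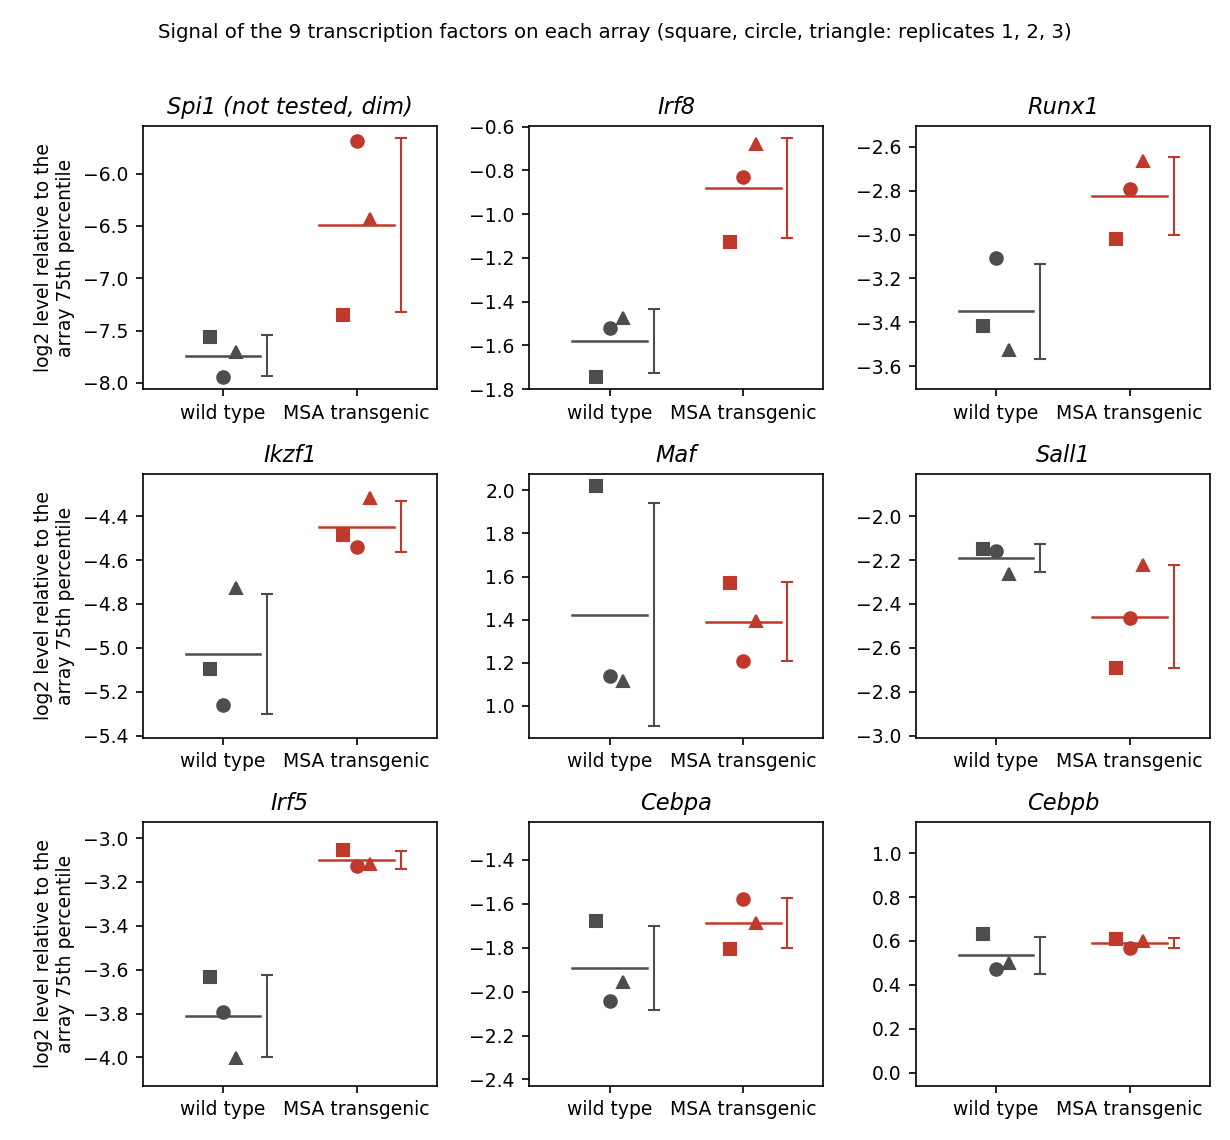
Log2 level of each factor relative to the array's 75th percentile, for the wild-type and the MSA transgenic samples; points are samples, the horizontal line is the mean and the bar 1 SD (n = 3 per genotype). Each panel has its own vertical scale. The groups are apart for Irf8, Runx1, Ikzf1 and Irf5, they overlap for Maf, Sall1, Cebpa and Cebpb, and Spi1 was well above background on 1 of the 6 arrays.

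Among the lineage factors, Spi1 could not be measured in wild-type tissue. Its single probe was well above background on 0 of 3 wild-type arrays and on 1 of 3 transgenic arrays. Its signals were 2.15, 2.28 and 2.56 intensity units in the wild-type samples and 3.74, 11.5 and 6.96 in the transgenic samples, where the dimmest signals that counted as well above background on an array ranged from 9.14 to 10.6. All 3 transgenic signals were above all wild-type ones, but the transgenic mean lay under that limit, so no fold is given. When the filter on dim probes was left out, the log2 difference was 1.25 ± 0.42 (SE; limma adjusted p = 0.587), and with normexp background correction as well it was -0.12 ± 0.13 (0.573). Neither value is read as a direction of Spi1.

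Irf8, the partner of PU.1 and a factor that microglia need to develop and to respond to injury, was the lineage factor with the smallest p. Its levels were -1.75, -1.52 and -1.47 in wild type and -1.13, -0.83 and -0.68 in the transgenic samples. All transgenic samples were higher, and wild-type replicate 1 was the lowest of the 6. The log2 difference was 0.70 ± 0.15 (SE, n = 3 per genotype, as for all differences below), with a 95% interval of 0.34 to 1.06 and a limma adjusted p of 0.366. Without wild-type replicate 1 it was 0.62 (limma adjusted p = 0.373). The second Irf8 probe is annotated to another transcript of the gene, and whether it reads that transcript alone was not tested. It gave -4.18, -4.26 and -3.98 in wild type and -3.59, -3.23 and -3.81 in the transgenic samples. Its groups were also apart, by 0.60 ± 0.17 (limma adjusted p over probes 0.687).

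Runx1, a founder factor of blood and of the yolk sac cells that give rise to microglia, had levels of -3.42, -3.11 and -3.52 in wild type and -3.02, -2.79 and -2.67 in the transgenic samples. The highest wild-type sample, replicate 2, lay just below the lowest transgenic one, replicate 1. Its log2 difference was 0.52 ± 0.15 (95% interval 0.15 to 0.90, limma adjusted p = 0.668), and 0.20 with normexp background correction. Both other Runx1 probes were too dim to test: the probe at chr16:92605785-92605844 was well above background on 0 wild-type and 2 transgenic arrays, and the probe at chr16:92697238-92697297 on none.

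Ikzf1 encodes Ikaros, a zinc finger protein of lymphoid and myeloid cells. Its brightest probe, at chr11:11671462-11671521, had levels of -5.09, -5.26 and -4.73 in wild type and -4.48, -4.54 and -4.32 in the transgenic samples, again without overlap. This probe's log2 difference was 0.58 ± 0.16 (95% interval 0.19 to 0.97, limma adjusted p = 0.617). A second tested probe gave 0.84 ± 0.29 (limma adjusted p over probes 0.831). This probe passed the filter through the transgenic samples alone, as wild-type replicate 1 was not well above background. The exon-spanning probe printed above was well above background on 0 of 3 wild-type and 2 of 3 transgenic arrays. Its measured means were -5.96 in wild type and -5.35 in the transgenic samples, with overlapping single samples. It was not tested, and no fold is given. The fourth probe was at background on all 6 arrays. With normexp background correction the difference of the brightest probe was -0.03 ± 0.10, where the median of all genes was -0.05, so no difference from the typical gene was left.

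The identity factors had no common direction. Sall1, a zinc finger repressor that in the adult brain marks microglia among myeloid cells, had levels of -2.15, -2.16 and -2.26 in wild type and -2.69, -2.46 and -2.22 in the transgenic samples. Transgenic replicates 1 and 2 lay below all wild-type samples, and replicate 3 lay within them. Sall1 thus had a log2 difference of -0.27 ± 0.14 (95% interval -0.60 to 0.07, limma adjusted p = 0.817), which was -0.15 without transgenic replicate 1. Maf, a basic leucine zipper factor of tissue macrophages and of some neurons, had levels of 2.02, 1.14 and 1.12 in wild type and 1.57, 1.21 and 1.40 in the transgenic samples. The groups overlapped through wild-type replicate 1, which was the highest of the 6. The log2 difference was -0.03 ± 0.27 (95% interval -0.70 to 0.63, limma adjusted p = 0.974), and without that sample it was 0.26 (limma adjusted p = 0.610). The other Maf probes gave -0.15 ± 0.17 and 0.08 ± 0.31, both with overlapping groups.

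Of the factors tied to inflammatory programmes, Irf5 had separate groups and the C/EBP genes did not. Irf5 carries signals of Toll-like receptors to inflammatory cytokine genes. Its levels were -3.63, -3.79 and -4.00 in wild type and -3.05, -3.13 and -3.12 in the transgenic samples, which lay close together. The log2 difference was 0.71 ± 0.12 (95% interval 0.43 to 0.99), the smallest p of the 8 factors, and the limma adjusted p was 0.211. Without wild-type replicate 1 it was 0.80 (limma adjusted p = 0.123), and with normexp background correction 0.18 (limma adjusted p = 0.565). The mean of its 2 probes gave 0.45.

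The second Irf5 probe did not show the same separation. Its levels were -4.58, -4.24 and -4.28 in wild type and -4.26, -4.17 and -4.08 in the transgenic samples, which overlap. For this probe the log2 difference was 0.19 ± 0.12 (limma adjusted p over probes 0.843). The differences of the Irf5 probes were 0.52 apart, with an exact permutation p of 0.1, the smallest that 3 against 3 samples allow, and 0.5 after adjustment over the 5 probe pairs compared. The other 4 pairs, 1 of Irf8, 1 of Ikzf1 and 2 of Maf, had exact permutation p-values of 0.4 to 0.9. These probe pairs were compared after the values had been seen.

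Cebpa, a factor of granulocyte and macrophage differentiation, had levels of -1.68, -2.04 and -1.95 in wild type and -1.80, -1.58 and -1.69 in the transgenic samples. Wild-type replicate 1 lay among the transgenic samples and the other wild-type samples lay below them. The log2 difference was 0.20 ± 0.13 (95% interval -0.11 to 0.52, limma adjusted p = 0.817), 0.31 without that sample (0.491) and 0.08 with normexp background correction. Cebpb, which is induced by inflammatory cytokines and is made by many cell types, had the smallest standard error of the 8. Its levels were 0.63, 0.47 and 0.50 in wild type and 0.61, 0.57 and 0.60 in the transgenic samples, with overlap. Between the genotypes the log2 difference was 0.06 ± 0.08 (95% interval -0.14 to 0.26, limma adjusted p = 0.854), and 0.10 without wild-type replicate 1.

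**Figure D2:**
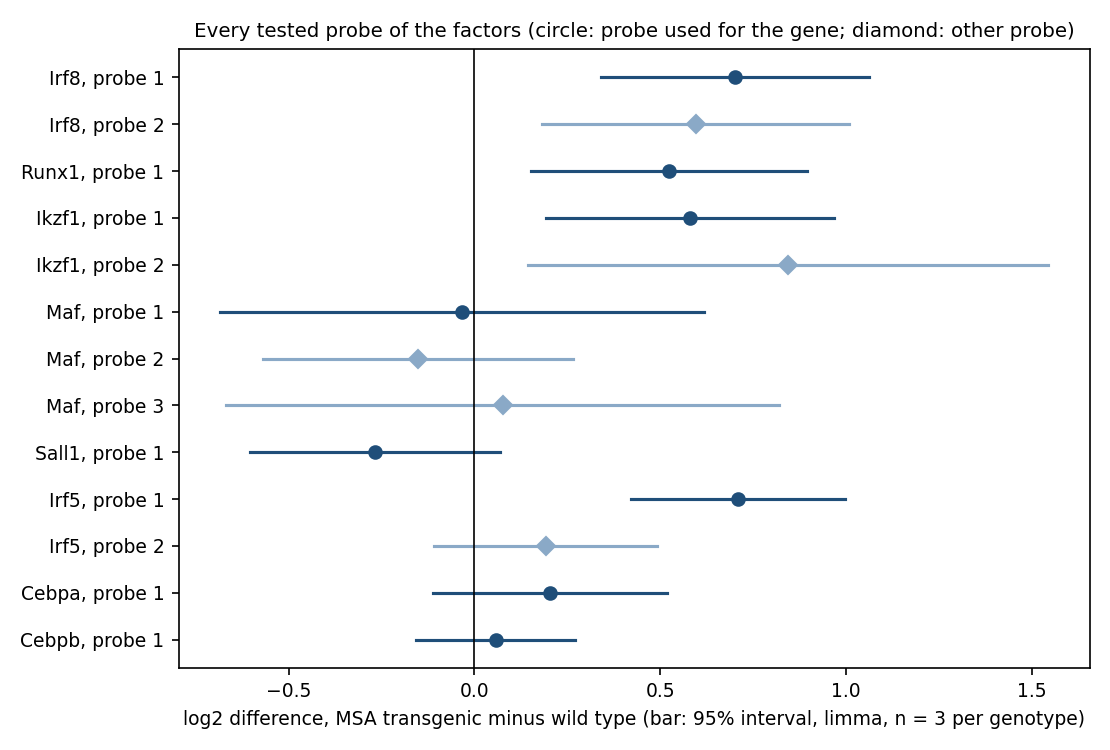
Log2 difference (MSA transgenic minus wild type) of each of the 13 tested probes of the factors, with 95% intervals from limma (n = 3 per genotype). The intervals of both Irf8 probes, both Ikzf1 probes, the Runx1 probe and the first Irf5 probe lie above 0. They are not adjusted over the 38463 probes. The second Ikzf1 probe passed the filter through the transgenic samples alone, as wild-type replicate 1 was not well above background. The intervals of the second Irf5 probe and of all probes of Maf, Sall1, Cebpa and Cebpb span 0.

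Leaving out wild-type replicate 1 raised the number of factors with separate groups from 4 to 7 of 8, while the share of all genes separated this way rose to 13.3%. Cebpa, Cebpb and Maf were the 3 added. With normexp background correction 2 of the 8 were separate, against 5.20% of all genes. The offset of 50 in that correction is close to the arrays' median signals of 39.6 to 67.5 units and shrinks log2 differences of dim probes by itself. No factor was called under any setting tried, and the smallest limma adjusted p over all of them was 0.123, for Irf5 without wild-type replicate 1.

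**Figure D3:**
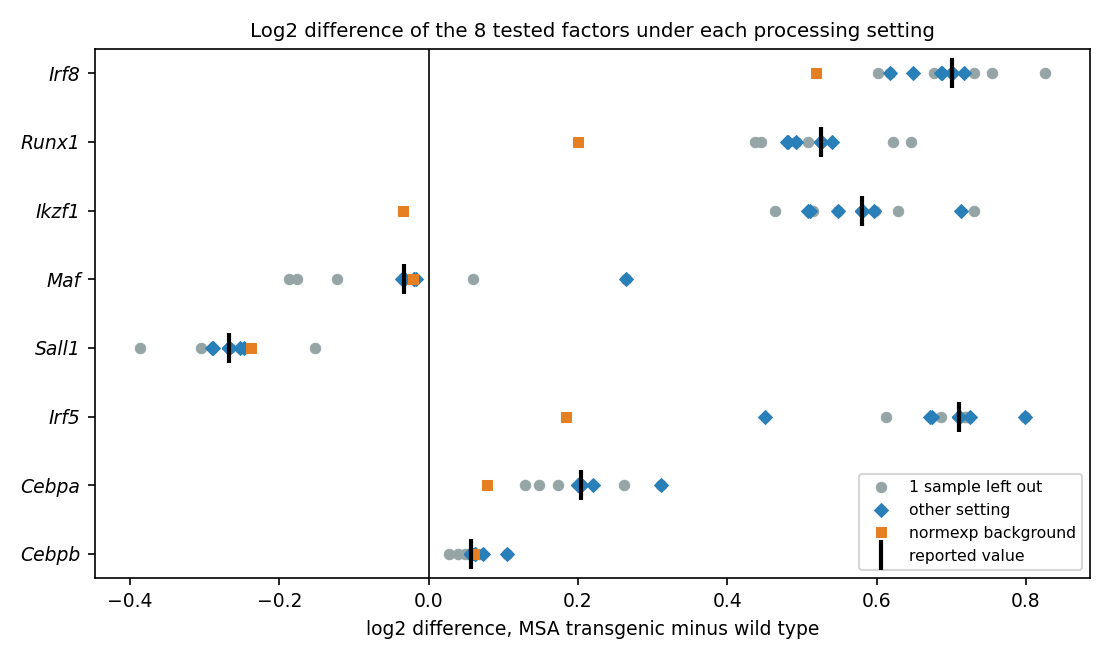
Log2 difference (MSA transgenic minus wild type) of each of the 8 tested factors as reported and under each other setting; grey circles leave out 1 sample each, orange squares use normexp background correction. Irf8 ranged from 0.52 to 0.82 and Sall1 from -0.39 to -0.15; Ikzf1 reached -0.03 with normexp, and Maf lay on both sides of 0.

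Promoter sequence was available for 7 of the factors from RefSeq (GRCm38.p6), as the 250 bases before each annotated start. The sequences of Irf8 and Irf5 are shown because these genes had the smallest p-values among the factors; capitals mark motif matches.
Irf8 promoter, chr8:120736108-120736357, plus strand: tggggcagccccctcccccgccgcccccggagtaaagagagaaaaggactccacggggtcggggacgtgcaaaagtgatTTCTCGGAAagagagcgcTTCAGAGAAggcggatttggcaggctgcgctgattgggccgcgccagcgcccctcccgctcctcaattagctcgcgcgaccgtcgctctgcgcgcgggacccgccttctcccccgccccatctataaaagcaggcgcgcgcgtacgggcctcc
Irf5 promoter, chr6:29526375-29526624, plus strand: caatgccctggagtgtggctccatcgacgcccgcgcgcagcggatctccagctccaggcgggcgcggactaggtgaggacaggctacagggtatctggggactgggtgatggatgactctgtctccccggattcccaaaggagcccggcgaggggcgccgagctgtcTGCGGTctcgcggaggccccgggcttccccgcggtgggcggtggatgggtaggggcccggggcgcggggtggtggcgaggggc

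In the Irf8 sequence the capitals are 2 matches to TTCNNNGAA, the palindrome bound by STAT dimers, starting 171 and 153 bases before the start site. At least 1 such match is held by 7.02% of 32841 promoters of this length, and this motif was added to the search after the Irf8 sequence had been seen. In the Irf5 sequence the capitals are 1 match to the RUNX motif TGNGGT, 83 bases before the start, a motif held by 40.1% of promoters. On both strands, the other motifs searched were GGAAGT (PU.1, in 19.7% of promoters), the interferon-stimulated response element of IRF factors (2.98%), the ETS-IRF composite element (2.3%), TTGCNNAA (C/EBP, 9.57%) and TGCTGA (MAF, 16.1%). None of these 5 is in either printed sequence. Elsewhere, a second Irf8 start held a RUNX and a MAF match, and 1 of 3 Sall1 starts held a PU.1 match 180 bases before it. No searched motif was found in these windows of Runx1, Ikzf1, Cebpa or Cebpb.

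Most relatives of the factors in the same DNA-binding families showed no separation. Of 35 relatives on the array 30 were tested and 0 were called in either direction. A log2 difference above 0 was seen for 18 of the 30, against 49.9% of all genes, with a median of 0.04 (-0.00 without wild-type replicate 1). Separate groups with the transgenic samples higher were seen for 4, against 7.4% of all genes. Irf7, a factor of the interferon response that is itself induced by interferon, had levels of -0.34, -0.45 and -0.39 in wild type and 0.87, 0.37 and 0.94 in the transgenic samples. All transgenic samples were higher, by 1.12 ± 0.17 on the log2 scale (limma adjusted p = 0.186). The small MAF proteins Maff, at 0.68 ± 0.20, and Mafk, at 0.31 ± 0.10, and the ETS factor Elf4, at 0.53 ± 0.22, also had separate groups (limma adjusted p = 0.672, 0.762 and 0.817). Without wild-type replicate 1 Elf4 was at 0.29. Spib, Irf4 and Cebpe were at background on all 6 arrays. Of the 29 relatives well above background on all arrays 17 were above 0, with a median of 0.03.

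The same held for other transcription factors of myeloid cells. Of 30 such genes 29 were tested, 0 were called, 15 had a difference above 0 and the median was 0.00. Of the 27 well above background on all arrays 14 were above 0, with a median of 0.00. Separate groups with the transgenic samples higher were seen for 4 of the tested genes, against 7.4% of all genes. Batf, 1 of these 4, passed the filter through the transgenic samples alone. The smallest p-values were those of Batf, an AP-1 family factor of leukocytes, at 0.55 ± 0.18, Nfkb2, an NF-kB subunit, at 0.48 ± 0.18, Tal1, a factor of blood cell development, at 0.48 ± 0.20, and Klf2, a factor of endothelial and immune cells, at 0.47 ± 0.29. The groups of Klf2 overlapped; the fourth gene with separate groups was Tfeb, a regulator of lysosomal genes, at 0.40 ± 0.26 (0.10 without wild-type replicate 1) and named after its values were seen. Their limma adjusted p-values were 0.765 for Batf and 0.817 for the others, and Nfkb2 was at 0.31 without wild-type replicate 1.

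Signals that act upstream of the factors were measured through 16 genes of the colony-stimulating factor (CSF1, GM-CSF and G-CSF) and TGF-beta pathways, of which 15 were tested and 0 were called. Csf1r, the receptor that microglia need to survive and a target of PU.1, had levels of 3.14, 3.18 and 3.13 in wild type and 3.62, 3.59 and 3.72 in the transgenic samples. The gap between the groups was wider than either group's range; the difference was 0.49 ± 0.08 on the log2 scale (limma adjusted p = 0.204). Its ligands Csf1 and Il34 had smaller differences, 0.20 ± 0.09 and 0.19 ± 0.10, both with separate groups (limma adjusted p = 0.817 for both). Tgfb1, whose signal maintains microglial identity, was at 0.25 ± 0.13 with overlapping groups (0.817).

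Genes known as targets of PU.1, IRF8 and C/EBP factors in myeloid cells were mostly higher in the transgenic samples without being called. Of 32 listed genes 30 were tested (29 of them well above background on each of the 6 arrays) and 0 were called. A difference above 0 was seen for 28 of the 30, against 49.9% of all genes. Separate groups with the transgenic samples higher were seen for 22 of the 30, against 7.4% of all genes. The median was 0.61, against -0.00 over all genes. Cybb, an oxidase subunit gene named after its values were seen, was not well above background in any wild-type sample. Of the 29 genes without it 27 were above 0, with a median of 0.61. Cd68, a lysosomal protein of phagocytes, was at 1.10 ± 0.10 on the log2 scale (limma adjusted p = 0.0591). Lyz1, a lysozyme gene, was at 1.17 ± 0.12, the lipid receptor gene Trem2 at 0.75 ± 0.08 (limma adjusted p = 0.0774 for both) and the complement gene C1qc at 0.90 ± 0.11 (0.120). Itgam, an integrin subunit of myeloid cells named after its values were seen, was the 1 gene with separate groups and the transgenic samples lower, at -0.32 ± 0.12 (limma adjusted p = 0.817). Its probe was bright, at 6.36 to 6.64 in wild type, and whether it also reads another transcript was not tested. Csf1r belongs to this list too, and the list was drawn up with earlier results of these arrays known.

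**Figure D4:**
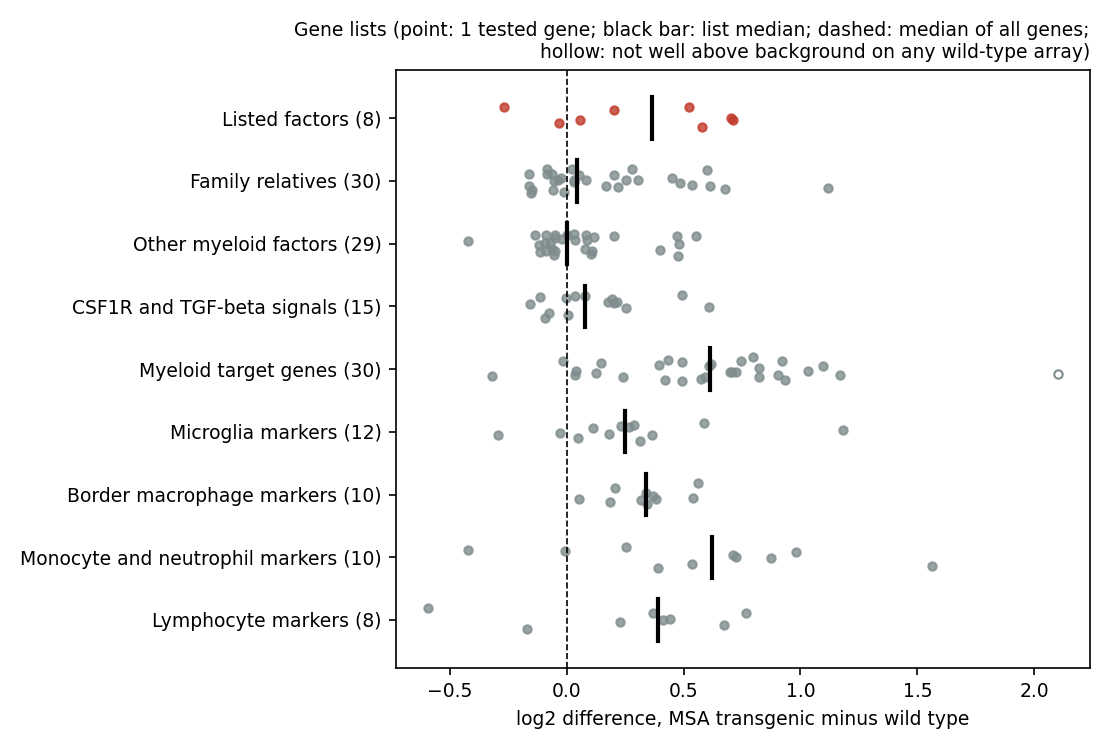
Log2 difference (MSA transgenic minus wild type) of every tested gene in the list of factors and in 8 other lists; the number of genes is in parentheses, black bars are list medians and the dashed line is the median of all genes. The hollow point is Cybb, which was not well above background on any wild-type array, so its place is not a measured fold. The medians are 0.04 for the family relatives and 0.61 for the myeloid target genes.

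Levels of cell type markers are given here beside those of the factors. All 12 microglia markers were tested and 0 were called; 10 had a difference above 0 and the median was 0.25, or 0.14 without wild-type replicate 1. Among them Aif1 and Tmem119 had separate groups, with log2 differences of 0.59 and 0.29, and Slc2a5, a fructose transporter gene, was at -0.29 with the transgenic samples lower. The summed signal of the list, in multiples of the array's 75th percentile, was 78.1 to 209 in wild type and 177 to 198 in the transgenic samples. One bright probe, that of Siglech, made up 73.9% of the sum in wild-type replicate 1 and 83.9% to 88.4% in the other samples, and whether it also reads another transcript was not tested. Without Siglech the sums were 20.4 to 24.3 in wild type and 26.4 to 28.4 in the transgenic samples. The lowest sum was that of wild-type replicate 1, where the Siglech and Olfml3 probes were dimmer than on the other arrays.

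Markers of border-associated macrophages (10 tested, 10 above 0, median 0.34, or 0.25 without wild-type replicate 1) had sums of 2.53 to 3.01 in wild type and 3.14 to 3.37 in the transgenic samples. For monocyte and neutrophil markers (10 of 12 tested) the sums were 13.9 to 16.7 and 15.5 to 17.6. These sums rest mostly on 1 bright probe, that of Ly6c2, whose log2 difference was -0.01, so they do not stand for the whole list. Of the 8 monocyte and neutrophil genes well above background on all arrays 6 were above 0, with a median of 0.62. The other tested genes, Plac8 and Mpo, passed the filter through the transgenic samples alone. Chil3 was at 1.56 ± 0.46 and S100a8 at 0.98 ± 0.32. Ccr2, named after its values were seen, was at -0.42 ± 0.17 with overlapping groups, and Cxcr2 was at background on all arrays. Over the 10 tested genes the median was 0.62, and 0.40 without wild-type replicate 1. For lymphocyte markers (8 of 12 tested) the sums were 1.70 to 3.60 and 3.56 to 4.74. The largest part of these sums came from the Cd4 probe, whose log2 difference was 0.67 ± 0.36 with overlapping groups. Of the 5 lymphocyte genes well above background on all arrays 3 were above 0. Cd3d, Cd2 and Cd79b passed through the transgenic samples alone, and Cd3g, Cd8a, Cd79a and Ncr1 were at background on all arrays. No gene of these 3 lists was called. Of 10 mature oligodendrocyte markers 1 was called, Klk6 at -2.06 ± 0.12 (limma adjusted p = 0.0159), and their median was -0.36. No cerebellum and brainstem neuron marker and no forebrain marker was called; the medians were -0.16 over 14 and 0.27 over the 7 forebrain genes well above background on all arrays. The medians were -0.07 for astrocyte and for endothelial markers and 0.10 for red blood cell markers (0.34 without wild-type replicate 1). The part of these lists in the values of the factors was not tested.

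To set the factors against the microglia markers, each factor's level was taken relative to the mean level of those 12 markers on the same array. This measure was added after the values had been seen. The mean includes Siglech and Olfml3, whose probes were dimmer on wild-type replicate 1 than on the other arrays. That mean was itself 0.27 higher in the transgenic samples (exact permutation p = 0.2), or 0.14 without wild-type replicate 1. Relative to it, Irf8 was 0.43 higher, Irf5 0.44, Runx1 0.25 and Ikzf1 0.31, and Sall1 was at -0.54. Groups were separate for Irf8, Runx1, Ikzf1 and Sall1, each with an exact permutation p of 0.1, the smallest possible, and 0.2 after adjustment over the 8 factors. The share of all genes with separate groups on this measure was not computed, so this count has no background to be read against. The groups of Runx1 and Ikzf1 nearly touched. Wild-type replicate 1, the highest of its group, was at -3.60 for Runx1 and -5.28 for Ikzf1. The lowest transgenic samples were at -3.58 and -5.27. The levels of Sall1 itself overlapped between the genotypes. Irf5 had an exact permutation p of 0.3. Maf was at -0.30, Cebpa at -0.07 and Cebpb at -0.21, with exact permutation p-values of 0.4 to 1. Without wild-type replicate 1 the values were 0.48 for Irf8, 0.66 for Irf5, 0.35 for Runx1, 0.41 for Ikzf1 and -0.39 for Sall1, while Maf, at 0.12, and Cebpa, at 0.17, turned direction and Cebpb was at -0.04.

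Over the 6 arrays, the genes whose centred levels were most like those of Irf8, among 18103 genes with a reference name, were Bcl3, Rac2 and Cyth4. Bcl3 encodes an atypical IkB protein, Rac2 a GTPase of blood cells and Cyth4 an exchange factor for ARF GTPases. Their root mean square differences from Irf8 were 0.057, 0.070 and 0.090 log2 units. Their own log2 differences between the genotypes were 0.63 (limma adjusted p = 0.466), 0.74 (0.191) and 0.69 (0.535). Values close to the 0.70 of Irf8 follow from the way these genes were chosen.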

How the data were processed

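Each of the 6 arrays gave 1 file of spot intensity values, deposited by the authors on a linear scale and background-subtracted by Agilent Feature Extraction 10.7.1.1, per the file headers. The submitters' processing notes give version 9.5.1.1. A value table, also deposited, holds intensity too: at least 99.93% of every column matched, to within 0.01 log2, a quantile normalization of the linear scanner signals, with a median of 59.9 per column. It was an alternative only.

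Spots that were controls or flagged as outliers (39 to 84 per array) were dropped, and repeated spots of a probe were averaged. There were no saturated spots. The log2 signal minus log2 of the array's 75th percentile entered lmFit and eBayes of limma 3.58.1 (run in R 4.3.3), with Benjamini-Hochberg adjustment and calls under 0.05. Testing required a probe to be well above background on the 3 arrays of either genotype (38463 probes), and each gene was read through its brightest tested probe (24932 genes); values given for other probes come from the fit over all probes. Gene names were updated through RefSeq (GRCm38.p6, names only). Motifs were searched on both strands.

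The members and lists were chosen with earlier results of these data known. Genes named are the 9 factors, up to 4 genes with the smallest p and every called gene of each list, and the 3 genes most like Irf8 (Spi1 was not tested); the text names some of these. Other genes, named for being dim, bright, separate or lower, were chosen after their values were seen. The fit was tested on simulated data with no slide effect and with planted differences larger than those of the factors. That test therefore does not cover differences of the size seen for the factors. With 6 arrays, their number limits precision. Other settings tried concerned background correction, scaling, the dim-probe filter, the value table, slide and title number as blocks, probe choice, the variance model and leaving out each sample.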

Additional observations from a re-analysis of the deposited data

How the results depend on the processing

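No factor and no probe of one was called under any alternative run. Recomputed log2 differences of the 8 tested factors kept their direction 124 times and turned 4 times. Those that turned were Ikzf1, at -0.034 with normexp background correction, where the median of all genes was -0.047, and Maf, at 0.26 with slide as a block, 0.26 without wild-type replicate 1 and 0.06 without transgenic replicate 2; over the samples left out in turn Maf ranged from -0.19 to 0.26. Because slide 1 held 1 array, the slide block equals leaving that array out. Among all genes, 11 were called as reported, 29 with normexp, 6 with no filter on dim probes, 23 where probes had to be well above background on all arrays, 7 with slide as a block, 24 with the mean of a gene's tested probes and 27 when the variance model followed intensity. Leaving out 1 sample in turn gave 0 calls in limma (without transgenic replicate 2, where 1193 genes had an unadjusted p under 0.05) to 7 (without wild-type replicate 1). The number of factors with separate groups, the transgenic samples higher, was 2 with normexp, against 5.20% of all genes. With 1 sample left out the number was 4 to 7, the 7 without wild-type replicate 1. The share of all genes separated this way also rose then, from 7.4% as reported to between 10.9% and 13.3%. The number of target genes above 0 stayed between 27 and 29. The number of target genes with separate groups stayed between 18 and 24, where the share of all genes was 5.20% to 13.3%. No paired analysis was possible because the labels carry no replicate numbers shared by the genotypes and do not say whether neighbouring title numbers belong together; with samples blocked by the leading digit of their titles, 11 genes and 0 factors were called. Spi1, 2 Runx1 probes and 2 Ikzf1 probes were too dim to test, which limits what can be said of these transcripts.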
